A study of Mus musculus with 12 samples.

Results

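The mature microRNAs of AKR-2B fibroblast colonies were compared between 1 library treated with TGFβ and 1 library given vehicle, both collected after 4 days in soft agar. A mature miRNA was kept when its mean over the 2 libraries was at least 10 CPM, the unit of read counts made relative to library size and scaled between libraries, which left 366 of the 1281 listed. Of those listed, 555 had a read in either day 4 library. The first group was AKR-2B cells grown in soft agar with 25 ng/mL TGFβ for 4 days, and the second was the same line grown the same way with vehicle for 4 days. AKR-2B is 1 established mouse fibroblast line, and soft agar is a semi-solid medium in which cells must grow without attachment. The study also made TGFβ and vehicle libraries at days 2 and 8, which are used below as separate pairs with vehicle libraries of their own. With 1 library per condition and day there is no replicate error, no test was made, and every interval given covers counting error only.

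A miRNA is cut from 1 arm, 5p or 3p, of a hairpin in a longer transcript, and it pairs with messenger RNAs mainly through its seed, bases 2 to 8, to lower their translation and stability. miRNAs with the same seed can share many targets, and hairpins close together on a chromosome are often cut from 1 transcript. TGFβ is a growth factor that drives fibroblasts to make matrix and, in this line, to form colonies in soft agar, and its SMAD proteins act both on miRNA gene transcription and, for some hairpins such as that of miR-21, on processing.

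The sequences below are those of the miRNAs that carry the day 4 differences, from RefSeq (mouse build GRCm38.p6), written 5′ to 3′ with the seed in capitals. The first 5 were among the largest or most abundant differences toward TGFβ.
miR-21a-5p: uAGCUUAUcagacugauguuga
miR-181a-5p: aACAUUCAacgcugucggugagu
miR-199a-5p: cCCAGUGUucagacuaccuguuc
miR-455-3p: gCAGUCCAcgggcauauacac
miR-155-5p: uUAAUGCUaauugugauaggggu
The next 4 share 1 seed of the miR-17-92 family and come from 2 loci.
miR-17-5p: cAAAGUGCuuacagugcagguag
miR-20a-5p: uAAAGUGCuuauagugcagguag
miR-93-5p: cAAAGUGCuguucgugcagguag
miR-106b-5p: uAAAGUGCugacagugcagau
The next 5 form 2 sets with 1 seed each, in which members lay on opposite sides.
miR-25-3p: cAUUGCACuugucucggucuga
miR-92a-3p: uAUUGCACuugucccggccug
miR-92b-3p: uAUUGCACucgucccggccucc
miR-146a-5p: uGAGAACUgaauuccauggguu
miR-146b-5p: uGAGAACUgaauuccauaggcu
The last 3 were lower with TGFβ, and the first of them shows the CA-rich repeat of the miR-466 group.
miR-466i-3p: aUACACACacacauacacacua
miR-218-5p: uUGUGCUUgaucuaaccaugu
miR-129-5p: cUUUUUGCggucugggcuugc

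The library totals were 459795 reads with TGFβ and 232107 with vehicle at day 4, and between 108716 and 1387785 over all 6 miRNA libraries. In the day 4 pair, 509 miRNAs were detected with TGFβ and 488 with vehicle, and the 10 most abundant took 55.33% of the TGFβ reads against 44.41% of the vehicle reads. Fibroblast-associated miRNAs were all present: the 9 listed markers summed to 365836 CPM with TGFβ and 172246 CPM with vehicle. Most defining markers of other cell types were at 0 at day 4. Of 6 leukocyte markers, 4 had no read in either library, the miR-142 arms, miR-223-3p and miR-150-5p, and the other two were miR-146a-5p and miR-155-5p, described below. miR-451a and miR-144-3p of red blood cells, miR-124-3p of nerve and the miR-133 and miR-208 markers of muscle had no read either. The other red blood cell marker, miR-486-5p, was present, with 291 reads with TGFβ and 252 with vehicle. The endothelial marker miR-126-3p had 3 reads with TGFβ and 2 with vehicle, and the liver marker miR-122-5p had 0 and 3. The 5 nerve markers summed to 900 CPM with TGFβ and 965 CPM with vehicle, from miR-9-5p and miR-128-3p, which other tissues also hold. The 7 epithelial markers summed to 15.6 CPM with TGFβ and 51.7 CPM with vehicle, with 4 of them at 0 in each. At day 2 the same 7 summed to 986 CPM with TGFβ and 211 CPM with vehicle.

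At day 4, 65 of the 366 miRNAs (17.8%) were at least 2-fold higher with TGFβ with a 95% counting interval of the ratio above 1, and 49 (13.4%) were at least 2-fold lower with an interval below 1. These are called higher and lower here. The log2 changes, computed with a prior count of 2, ran from -5.22 to 3.52 with a median of 0.17 and quartiles of -0.62 and 0.88. At 1.5-fold without an interval rule, 123 (33.6%) were higher and 93 (25.4%) lower. The split rests on the scaling: with plain total reads the median moved by -0.48 and the calls became 43 higher and 86 lower, and small positive changes such as that of miR-125a-5p (0.26) changed sign. All changes here are therefore relative to the bulk of the miRNAs. In bulk RNA, a lower level per cell and fewer cells that hold the miRNA cannot be told apart.

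**Figure D1:**
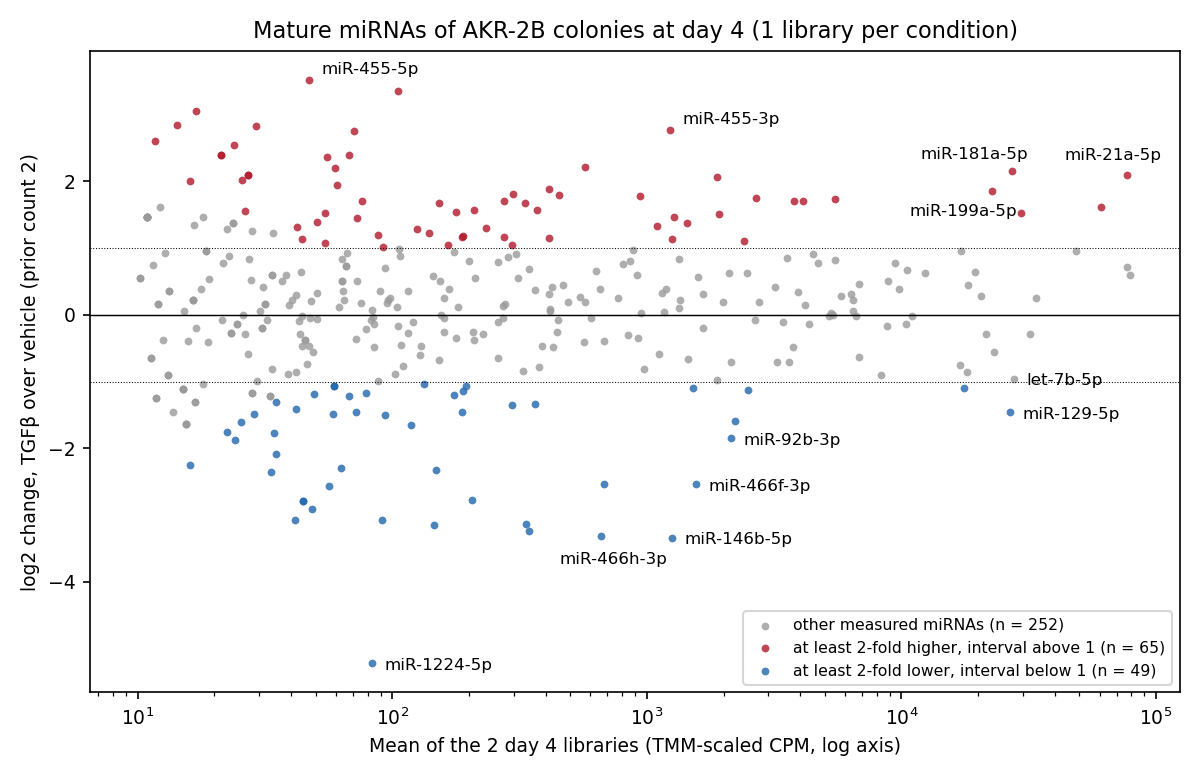
Each point is 1 of the 366 mature miRNAs, with the mean CPM of the 2 day 4 libraries on a log axis and the log2 change, TGFβ over vehicle, on the vertical axis. The 65 red points were called higher and the 49 blue points called lower. miR-21a-5p and miR-181a-5p stand at the abundant end of the higher side, and miR-1224-5p is the lowest point at -5.22.

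The differences reached the most abundant miRNAs and so shifted the make-up of the library. miR-21a-5p, a widely expressed miRNA linked to growth and fibrosis, had 47978 reads with TGFβ and 7839 with vehicle, and was the most abundant miRNA with TGFβ (10.4% of reads) but ranked 9 with vehicle (3.38%). Its scaled ratio was 4.29 (95% counting interval 4.19 to 4.40). The interval is narrow because of the depth of this miRNA and says nothing of the spread between cultures. miR-21a-5p alone gained 7.06 of the 25.4 percentage points of reads that moved between miRNAs, and the 5 miRNAs with the largest gain took 17.5 of them: miR-21a-5p, miR-6243, miR-181a-5p, miR-92a-3p and miR-199a-5p.

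On the other side, miR-129-5p, a miRNA best known from brain, held 1.19% of reads with TGFβ and 4.54% with vehicle. let-7b-5p, of the let-7 family that represses growth-promoting mRNAs, held 1.57% with TGFβ and 4.24% with vehicle, and miR-744-5p 0.943% with TGFβ and 2.79% with vehicle. The 5 miRNAs with the largest loss gave up 11.1 points. Of the 10 most abundant miRNAs, 7 were common to both libraries. The ranks of miR-99b-5p (2 with TGFβ, 1 with vehicle) and miR-214-3p (3 with TGFβ, 2 with vehicle) hardly differed.

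miR-6243 had 35251 reads with TGFβ and 8041 with vehicle (ratio 3.08, 3.00 to 3.15). It belongs to the miRNAs with numbers of 1000 and above, which were registered late and include fragments of other RNAs. Together this class took 12% of the TGFβ reads and 8.14% of the vehicle reads, and 4.30% against 4.68% when miR-6243 was set aside. The class held 75 of the 366 miRNAs, with 7 called higher and 11 called lower, or 9.33% higher and 14.7% lower against 17.8% and 13.4% of all 366. Its median of 0.17 equalled that of all miRNAs.

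The 12 largest increases among miRNAs with at least 50 reads in the pair were led by the rarer arm of miR-181a-1. miR-181a-1-3p had 75 reads with TGFβ and 4 with vehicle, a ratio of 13.2 whose interval of 4.93 to 49.5 reflects the 4 reads. The abundant miR-181a-5p, which that hairpin and a copy on another locus can both give, had 17117 reads with TGFβ and 2701 with vehicle (ratio 4.45, 4.27 to 4.63). Both lay far above the vehicle level, the rare one with a wide interval and the abundant one with a narrow one.

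miR-455, best known from cartilage, lies inside the collagen gene Col27a1, and both of its arms were higher. miR-455-3p (chr4:63256904-63256924, GRCm38) had 828 reads with TGFβ and 84 with vehicle (ratio 6.92, 5.52 to 8.76). miR-455-5p (chr4:63256867-63256888) had the highest log2 change of all, 3.52, from 35 reads with TGFβ against 1 with vehicle. In the authors' deposited table of day 4 mRNA ratios, Col27a1 stood at 6.43. The header of that table names no direction. It was read as TGFβ over vehicle, since 10 of 11 listed direct TGFβ targets in it lay above 1, with Timp3 (0.123) below.

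Other increases touched miRNAs with known roles in inflammation and muscle. miR-155-5p, made from the Mir155hg transcript and best known from immune cells, had 252 reads with TGFβ and 47 with vehicle (ratio 3.76, 2.75 to 5.25). miR-206-3p, a skeletal muscle miRNA, had 45 reads with TGFβ and 5 with vehicle (6.31, 2.51 to 20.4). Of the other listed muscle markers, miR-1a-3p had 1 read in each library and the rest had none. miR-345-5p followed with 49 reads against 4 (8.59, 3.15 to 32.8), miR-224-5p, inside Gabre on chromosome X, with 270 against 54 (3.51, 2.61 to 4.79), and miR-5117-3p with 1176 against 197 (4.19, 3.60 to 4.90).

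**Figure D2:**
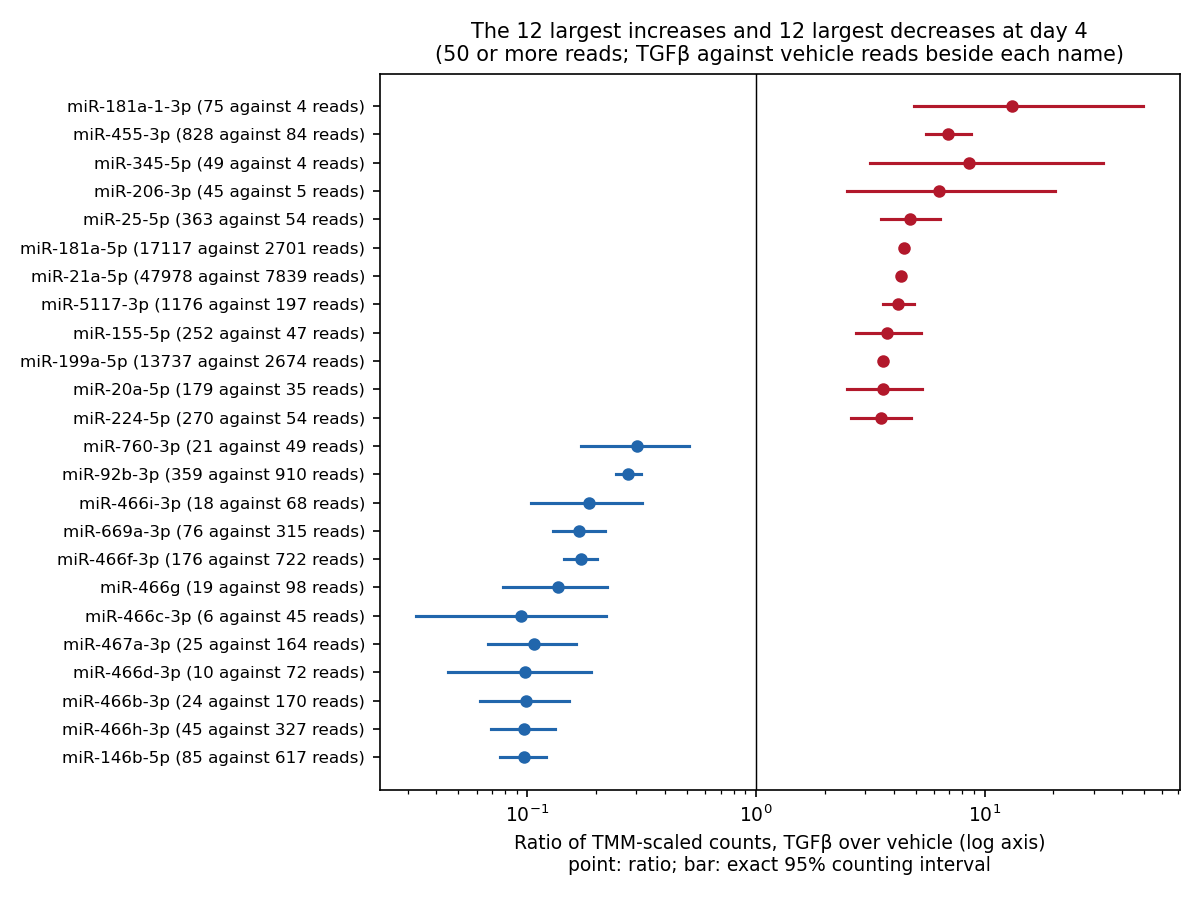
Ratios of scaled counts, TGFβ over vehicle, on a log axis for the 12 largest increases (red) and 12 largest decreases (blue) among miRNAs with 50 or more reads. Points are ratios and bars are exact 95% counting intervals. The bars of abundant miRNAs such as miR-21a-5p are narrower than their points, while miR-181a-1-3p, with 4 vehicle reads, spans 4.93 to 49.5.

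The miR-17-92 cluster and its paralogs, miRNAs that favour proliferation and are under Myc and E2F control, were higher almost as a whole. Of 14 measured members of this list, 13 were called higher, with a median log2 change of 1.77, against 17.8% called higher and a median of 0.17 over all 366. miR-18a-5p had 13 reads with TGFβ and none with vehicle, which makes it at least 3.04-fold higher with 0 set to 3 reads, and with this member at that bound the median was 1.68. The exception was miR-19b-3p, at 18 reads with TGFβ and 13 with vehicle (log2 change -0.04). With total reads 9 of the 14 were called higher and the median was 1.29.

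The locus of miR-25, miR-93 and miR-106b lies inside the replication gene Mcm7 (chr5:138165321-138165818). All 6 of its measured arms were called higher (5 with total reads), with a median of 1.99 (1.53 with total reads). The largest by reads was miR-25-3p, with 1602 with TGFβ and 333 with vehicle (ratio 3.38, 3.00 to 3.81), and its other arm miR-25-5p had 363 with TGFβ and 54 with vehicle (4.72, 3.54 to 6.40). The locus of miR-17 to miR-92a-1 in Mir17hg (chr14:115043671-115044506) had 7 of 8 arms called higher, with a median of 1.42. With total reads 4 of the 8 were called, and the median was 0.97. The 4 miRNAs with the seed AAAGUGC, drawn from both loci, ranged from 1.15 for miR-17-5p to 2.20 for miR-106b-5p.

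The most abundant member, miR-92a-3p, had 16847 reads with TGFβ and 4128 with vehicle (ratio 2.86, 2.77 to 2.96). Its level was 32188, 43685 and 20419 CPM in the TGFβ libraries of days 2, 4 and 8, against 29783, 15256 and 11045 CPM in their vehicle libraries. At day 2 the libraries therefore stood close together. Summed over the 14 members, the level was 37725, 53469 and 30317 CPM with TGFβ at days 2, 4 and 8, and 33970, 18331 and 14613 CPM with vehicle.

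The miR-181 family, known from lymphocytes and from TGFβ responses, had 5 of 6 measured members called higher and a median of 1.93. Over all 366 miRNAs, 17.8% were called higher and the median was 0.17. The 4 members with the seed ACAUUCA, the 5p arms, were all called, and of the other two, the 3p arms, miR-181c-3p (0.53) was not. Most of its reads came from the locus of miR-181a-1 and miR-181b-1 (chr1:137966455-137966718) or its copy, since miR-181a-5p and miR-181b-5p can each come from 2 hairpins and their reads cannot be assigned. miR-181b-5p had 2426 reads with TGFβ and 522 with vehicle (ratio 3.26, 2.97 to 3.59). The summed family level was 11611, 51130 and 68719 CPM with TGFβ at days 2, 4 and 8, against 9193, 12026 and 18645 CPM with vehicle. With total reads 4 of the 6 measured members were called at day 4, and the median was 1.45.

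The miR-29 family, known for repressing collagen mRNAs, had all 5 measured members at least 1.5-fold higher and 2 called, with a median of 1.46. Of all 366 miRNAs, 33.6% were at least 1.5-fold higher and 17.8% were called higher. miR-29a-3p made up nearly all reads of the family, with 3263 with TGFβ and 687 with vehicle (ratio 3.33, 3.07 to 3.62). The median is the value of miR-29c-3p, which had 7 reads with TGFβ and 1 with vehicle. Together miR-29c-3p, miR-29c-5p and miR-29b-3p had 33 reads with TGFβ and 7 with vehicle, and none of them was called. The family's summed level was 2438 CPM with TGFβ at day 2, below the 3289 CPM with vehicle, and then 8591 against 2569 CPM at day 4 and 11570 against 3440 CPM at day 8. The day 4 pair is thus the first of the 3 in which this family was higher with TGFβ.

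The list of miR-199a, miR-199b and miR-214, abundant in fibroblasts, had 6 of 6 members at least 1.5-fold higher, of which 3 were called. For this list and the 2 clusters below, the shares over all 366 were 33.6% at least 1.5-fold higher and 17.8% called higher. With total reads 3 of the 6 were at least 1.5-fold higher and 2 were called. The 4 of them that the Mir199a-2 and Mir214 hairpins in the Dnm3os transcript can give, the arms of miR-199a and miR-214, held 2 of the calls. The arms differed in size: miR-199a-5p had 13737 reads with TGFβ and 2674 with vehicle (ratio 3.60, 3.46 to 3.76), while miR-199a-3p, which cannot be told from the 3p arm of miR-199b, had 4576 with TGFβ and 1888 with vehicle (1.70, 1.61 to 1.80). These 3p arms had the same log2 change (0.77) and are counted among the 6 as separate members, though they are not separate measurements. The cluster of miR-182, miR-183 and miR-96, miRNAs of sensory cells and of several tumours, had all 4 measured members at least 1.5-fold higher and 3 called. It was led in reads by miR-182-5p with 2229 with TGFβ and 477 with vehicle (3.28, 2.97 to 3.63). With total reads 3 of these 4 members were at least 1.5-fold higher and 2 were called. A cluster on chromosome X inside Clcn5, of miR-500, miR-501, miR-362 and miR-532, had 3 of the 5 arms with a RefSeq position called higher, with a median of 1.30, or 1.07 with miR-501-5p, at 9 reads with TGFβ and none with vehicle, set to its bound. With total reads 1 of the 5 was called. miR-532-5p, which had no RefSeq position and is not among the 5, was also called, with 1264 reads with TGFβ and 413 with vehicle (ratio 2.15, 1.92 to 2.41).

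With the scaling used here, large families without a common shift lay beside these. None of the 16 measured members of the list of let-7 and miR-98 was called, and their median was 0.03, with a range from -0.96 for let-7b-5p to 0.84. let-7j, which the list left out, was not called either, with 285 reads with TGFβ and 153 with vehicle (0.38). With total reads the list's median was -0.44, with 6 members at least 1.5-fold lower and 1 called lower. The median was -0.05 (-0.51 with total reads) for the clusters of miR-23, miR-27 and miR-24, and -0.14 (-0.60) for miR-26. It was 0.13 (-0.31) for miR-15 and miR-16, and -0.44 (-0.91) for miR-143 and miR-145, which are abundant in smooth muscle. With total reads 3 of the 4 members of the miR-143 and miR-145 list were at least 1.5-fold lower, and 2 were called lower. The same scaling put 4 of 10 in the miR-23, miR-27 and miR-24 list and 2 of 4 in the miR-26 list at least 1.5-fold lower. Over all miRNAs measured with total reads, 140 of 360 were at least 1.5-fold lower and 86 were called lower. The miR-99, miR-100 and miR-125 families, whose summed level was the highest of the lists, had a median of 0.56 with 4 of 9 at least 1.5-fold higher and none called. Of all 366 miRNAs, 33.6% were at least 1.5-fold higher and 17.8% were called higher. With total reads the median of the miR-99, miR-100 and miR-125 families was 0.09 and none of the 9 was 1.5-fold higher. Within the list of miR-23, miR-27 and miR-24, miR-27a-5p stood apart with 728 reads with TGFβ and 183 with vehicle (ratio 2.79, 2.37 to 3.30).

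**Figure D3:**
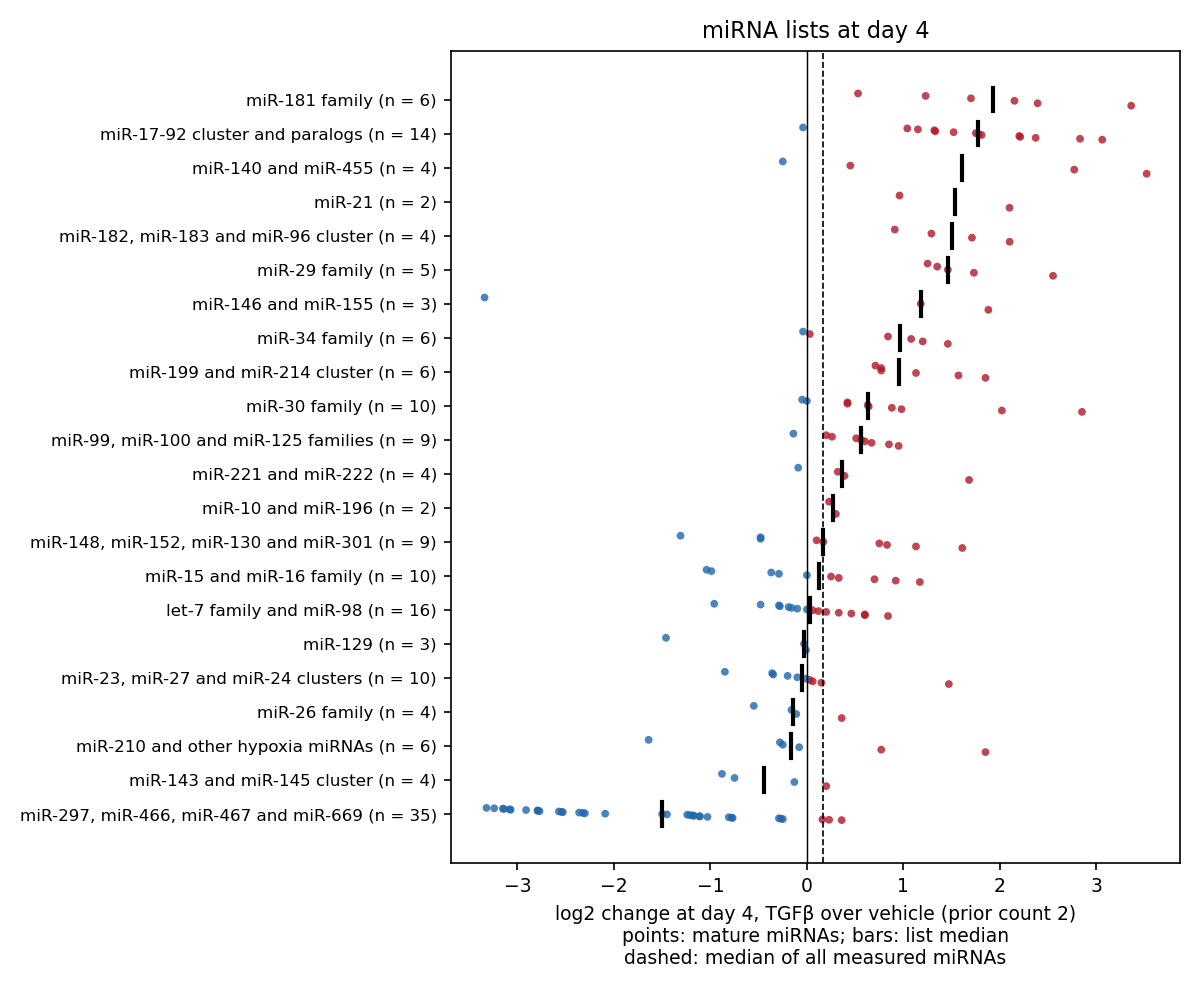
Log2 changes at day 4, TGFβ over vehicle, for the measured members of 22 miRNA lists, ordered by their median (black bar). The dashed line is the median of all 366 miRNAs, 0.17. The miR-181 list (1.93) and the miR-17-92 list (1.77) stand at the top, and the list led by miR-466 at the bottom (-1.50).

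By log2 change with the prior count, the largest decrease among miRNAs with 50 or more reads was miR-146b-5p (-3.34), ahead of miR-466h-3p (-3.32). By ratio alone the order of the 2 was reversed, with overlapping intervals. miR-146b-5p, a miRNA known for damping NF-κB signalling, had 85 reads with TGFβ and 617 with vehicle, 10.3-fold lower (8.24 to 13.1). Its level was 549, 220 and 674 CPM with TGFβ at days 2, 4 and 8, and 535, 2280 and 5983 CPM with vehicle. The 2 libraries of day 2 were nearly equal, and the vehicle level was higher at each later day.

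Below it, 9 of the 12 largest decreases were 3p arms or undivided members of the miR-466, miR-467 and miR-669 groups, which in mouse lie mostly in an intron of the Polycomb gene Sfmbt2. In the full list with miR-297, 35 of 78 members were measured, with a median of -1.50. With no filter on low values the median of the list was -1.11. Of the 35, 29 were at least 1.5-fold lower (background 25.4%) and 19 were called lower (background 13.4%). miR-466f-3p was the most abundant, with 176 reads with TGFβ and 722 with vehicle (5.85-fold lower, 4.95 to 6.93). miR-466h-3p had 45 with TGFβ and 327 with vehicle (10.4-fold lower, 7.57 to 14.5), and miR-669a-3p 76 with TGFβ and 315 with vehicle (5.91-fold lower, 4.59 to 7.69). These miRNAs are near-identical repeats, reads can be shared or split among them, and they are uncertain as single miRNAs. Of the list, miR-466i-3p, printed above, had a match in the RefSeq table used, at chr13:17747552-17747573, a copy outside Sfmbt2.

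Within this list the arms differed. All 20 measured 3p arms were at least 1.5-fold lower and 16 were called, with a median of -2.55 and a range from -3.32 to -1.03. Of 14 measured 5p arms, 8 were at least 1.5-fold lower and 2 were called (7 with total reads), with a median of -0.78. The shares over all 366 were 25.4% at least 1.5-fold lower and 13.4% called lower. For miR-467a, the 3p arm had 25 reads with TGFβ and 164 with vehicle, while the 5p arm had 79 with TGFβ and 68 with vehicle (log2 changes of -3.14 and -0.29). Among all measured miRNAs with a named arm, this list included, the medians of the 159 3p arms (0.20) and 160 5p arms (0.21) were alike. Their calls differed: 14.5% of the 3p arms were called higher and 17.6% lower, against 23.8% and 8.12% of the 5p arms. This list held 16 of the 28 3p arms called lower and 2 of the 13 5p arms called lower. The difference in lower calls therefore lay mostly within this list.

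Summed, the 20 3p arms stood at 1257, 1107 and 1592 CPM with TGFβ at days 2, 4 and 8, and at 1199, 7732 and 4936 CPM with vehicle. The 14 5p arms stood at 2639, 1634 and 1783 CPM with TGFβ and at 2835, 2683 and 2237 CPM with vehicle. The TGFβ level of the 3p arms was thus within a narrow range at all 3 days, and the high value was that of the day 4 vehicle library, followed by that of day 8. Whether these 2 vehicle libraries differ in another way was not tested.

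**Figure D4:**
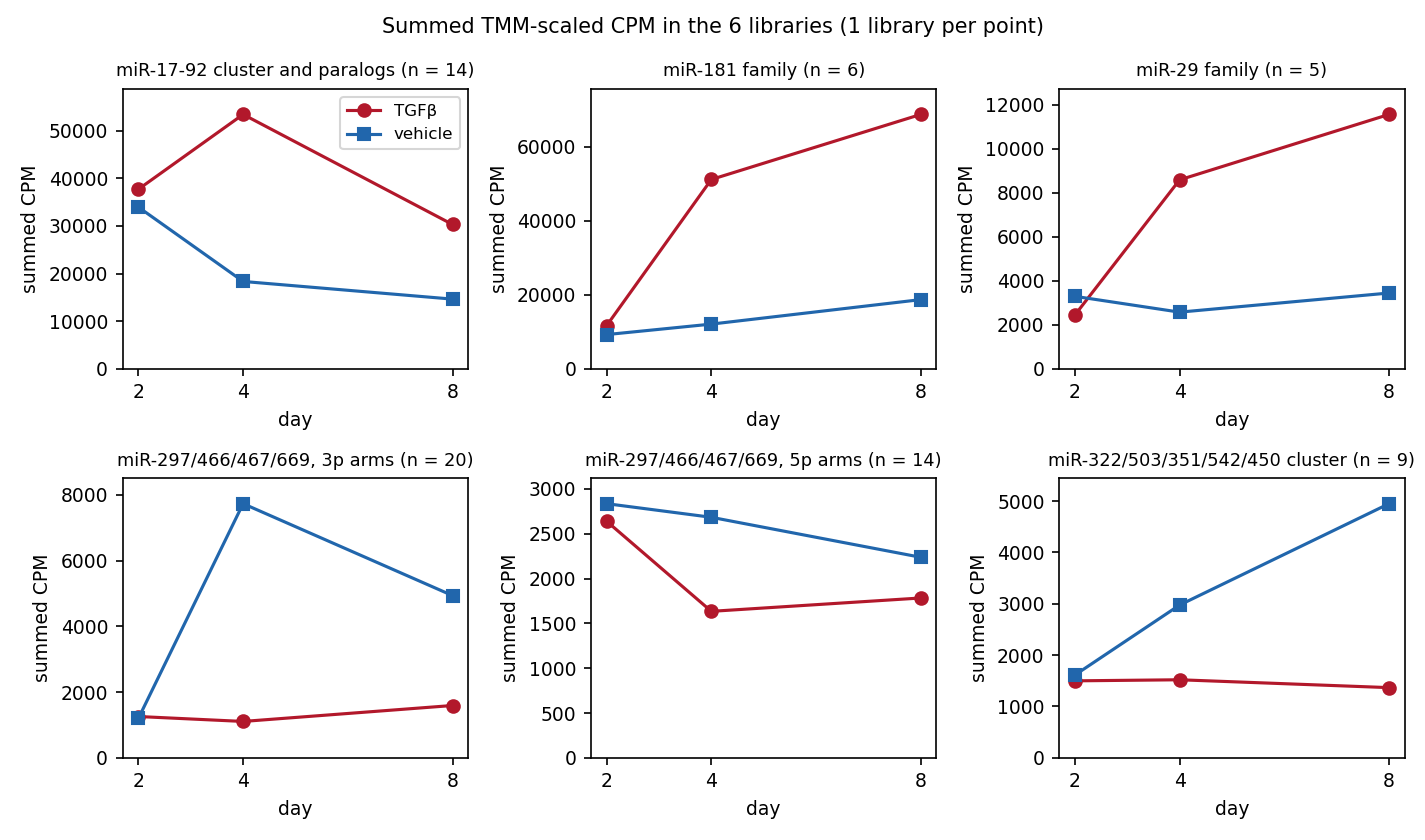
Summed CPM of 6 groups of miRNAs in the TGFβ (red circles) and vehicle (blue squares) libraries at days 2, 4 and 8, with 1 library per point. The upper groups were higher with TGFβ at day 4. In the lower row the 3p arms of the miR-466 type show the vehicle library of day 4 at 7732 CPM and the other vehicle and TGFβ libraries between 1107 and 4936 CPM.

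Outside these repeats, the decreases included abundant and gene-embedded miRNAs. miR-92b-3p (hairpin at chr3:89227116-89227198) had 359 reads with TGFβ and 910 with vehicle, 3.61-fold lower (3.19 to 4.09), and its 5p arm was 2.60-fold lower (1.90 to 3.60). miR-218-5p, made from introns of the axon guidance genes Slit2 and Slit3, had 426 reads with TGFβ and 904 with vehicle (3.02-fold lower, 2.69 to 3.40). miR-129-5p had 5470 with TGFβ and 10542 with vehicle (2.75-fold lower, 2.66 to 2.84), while the 3p arm of its Mir129-2 hairpin, miR-129-2-3p, had a ratio of 0.995 (0.929 to 1.07). miR-744-5p, inside the kinase gene Map2k4, was 2.13-fold lower (2.05 to 2.21) and miR-615-3p, inside Hoxc5, 2.14-fold lower (1.87 to 2.45).

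The lowest log2 change of all, -5.22, belonged to miR-1224-5p, inside Vwa5b2, which had no read with TGFβ and 45 with vehicle. With 3 reads as the limit that a count of 0 allows, it was at least 21.4-fold lower. It lies outside the rule for named miRNAs, which asked for 50 reads, and was named after its values were seen. On chromosome X, the cluster from miR-322 and miR-503 to miR-450b (chrX:53047997-53054349), which holds relatives of miR-16 and is linked to cell cycle arrest, had 6 of 9 arms with a RefSeq position at least 1.5-fold lower and 2 called, with a median of -0.98. Of all 366 miRNAs, 25.4% were at least 1.5-fold lower and 13.4% were called lower. With total reads 5 of the 9 were called. Its summed level was 1499, 1520 and 1367 CPM with TGFβ at days 2, 4 and 8, and 1612, 2975 and 4949 CPM with vehicle.

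A shared seed did not always go with a shared direction. With the seed AUUGCAC, miR-25-3p (1.75) and miR-92a-3p (1.52) were higher and miR-92b-3p (-1.85) was lower. Over the 21 bases compared, miR-92a-3p and miR-92b-3p are identical at 19, with the differences U10C and G21C, positions being counted from 1 at the 5′ end and the base of miR-92a-3p given first. They come from different chromosomes, 14 for the miR-17-92 copy of miR-92a and 3 for miR-92b.

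With the seed GAGAACU, miR-146a-5p had 102 reads with TGFβ and 31 with vehicle (log2 change 1.18) and miR-146b-5p had a change of -3.34. They are identical at 20 of 22 bases, with the differences G18A and U21C on the same numbering from miR-146a-5p. Each pair differs at few bases, and reads with errors at those bases could be counted for the partner. The level of miR-146a-5p was 218, 264 and 650 CPM with TGFβ at days 2, 4 and 8, against 178, 115 and 132 CPM with vehicle. The list of miR-146 and miR-155 thus held both directions at day 4.

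Both arms were measured under 1 name for 95 miRNAs, and in 66 of these pairs (69.5%) the arms lay on 1 side of 0. Arms that carry different names, such as miR-129-5p and miR-129-2-3p, are not among the 95. In 24 both arms were at least 1.5-fold higher and in 9 both at least 1.5-fold lower. The 24 include both miR-199a and miR-199b, whose 3p arms cannot be told apart. The median gap between the arms was 0.71 on the log2 scale. Opposite sides at 1.5-fold were seen for miR-193b, miR-322, miR-361 and miR-872. Only for miR-872, inside Ift74, were both arms called, with miR-872-5p at 40 reads with TGFβ and 66 with vehicle (-1.20) and miR-872-3p at 29 with TGFβ and 7 with vehicle (1.39).

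**Figure D5:**
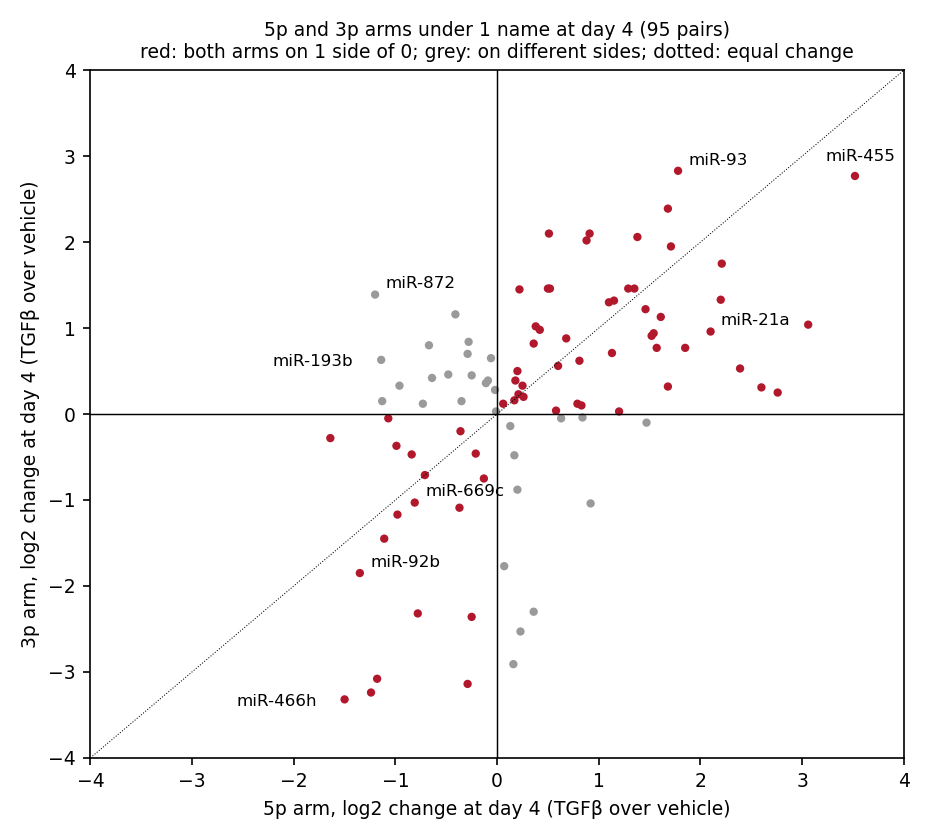
Log2 change of the 5p arm against that of the 3p arm at day 4, TGFβ over vehicle, for the 95 miRNAs with both arms measured under 1 name. Red points (66) have both arms on 1 side of 0 and grey points lie on different sides. Both arms of miR-455 lie at the upper right, and miR-466h at the lower left, where the 3p arm is lower than the 5p arm.

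The values at the other days, with other libraries, differed between day 2 and day 8. The 65 miRNAs called higher at day 4 had a median log2 change of 0.11 at day 2 and 1.65 at day 8. At day 2, 17 of them were at least 1.5-fold higher and 13 at least 1.5-fold lower, where 19.4% and 27.6% of all 366 were. At day 8, 55 were at least 1.5-fold higher and 1 lower, where 32.2% and 30.6% of all 366 were. The 49 called lower had medians of -0.07 at day 2 and -1.33 at day 8, with 13 lower and 5 higher at 1.5-fold at day 2, and 41 lower and 1 higher at day 8.

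The vehicle libraries of the other days give a further set of levels to place the day 4 TGFβ library against. It lay above all 3 vehicle libraries for 60 of the 65 called higher, where this held for 36.1% of all 366, and below all 3 for 37 of the 49 called lower, where it held for 24.3% of all 366. All 3 TGFβ libraries lay above all 3 vehicle libraries for 26 of the 65 (13.1% of all 366) and below them for 15 of the 49 (8.47% of all 366). The day 4 vehicle library takes part in both the calls and these counts, so they are a description. The median level of the 49 called lower was 76.7, 38.9 and 48.2 CPM with TGFβ at days 2, 4 and 8, and 81.0, 166 and 99.0 CPM with vehicle. The highest of these medians was that of the day 4 vehicle library and the lowest that of the day 4 TGFβ library. The choice of the 49 from these 2 libraries favours this order.

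Of the 366 miRNAs, 283 had a RefSeq mature sequence, and 203 of these lay inside an annotated gene on the same strand. Among the third of these miRNAs with the lowest GC content (31.8% to 45.5%), 27 of 101 were called higher and 9 lower, while in the third with the highest (56.5% to 100%) 13 of 95 were called higher and 18 lower. Among those in between 16 of 87 were called higher and 3 lower, so the lower calls did not follow GC content in order. Only 56 of the 65 called higher and 30 of the 49 called lower have a sequence, and those without one include most of the called miR-466, miR-467 and miR-669 members. The rank correlation of GC content with the log2 change was -0.13 over the 283 miRNAs, which share both libraries. Of miRNAs shorter than 22 bases, 7 of 63 were called higher and 14 lower, and of those longer than 22 bases, 19 of 68 were called higher and 4 lower. The part of GC content and length in the calls was not tested.

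The share of calls varied less with abundance. Of 88 miRNAs with a mean of 1000 CPM or more, 17 were called higher and 8 lower, and of 175 between 10 and 100 CPM, 27 were called higher and 26 lower. The 65 called higher held 33.1% of the scaled reads with TGFβ and 13.0% with vehicle, and the 49 called lower held 2.74% with TGFβ and 10.4% with vehicle.

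For 5 of the measured miRNAs the host gene was listed in the authors' deposited day 4 mRNA table, which gives 499 genes above 1 and 499 below. Beside Col27a1, the RNA A230057D06Rik stood at 0.0297 in the authors' deposited table, 33.7-fold below 1. The miRNAs inside it included miR-344b-3p (log2 change -1.87), miR-344d-3p (-0.81) and miR-344-3p (-0.20), of which the last also lies in A330076H08Rik, at 0.0511 in the authors' deposited table. These miRNAs are rare: miR-344b-3p had 3 reads with TGFβ and 11 with vehicle, miR-344d-3p 9 with TGFβ and 12 with vehicle, and miR-344-3p 6 with TGFβ and 5 with vehicle. The intervals of the last 2 included 1.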

How the data were processed

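The miRNA table deposited by the authors holds whole read counts per mature miRNA, with no normalization. The second miRNA table deposited by the authors holds RPM values for 430 mature miRNAs. Its values lay within 5% of counts over library total for 349 of 360 shared miRNAs in the day 4 TGFβ library and 355 in the vehicle library, and it was used only for this check. The mRNA table deposited by the authors gives a ratio (fold) per gene for day 4, with no per-sample values. edgeR 3.9 and mm10 are named in the submitters' processing notes without a role, and no aligner or miRNA counter is given in the sources used here. Per the labels' protocols, all libraries were made with a TruSeq RNA kit from total RNA of recovered colonies.

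Counts were scaled with TMM factors (edgeR 4.0.16, R 4.3.3) over the 6 miRNA libraries, from the 309 miRNAs that passed edgeR's expression filter. The day 4 factors were 0.839 with TGFβ and 1.17 with vehicle. Log2 changes used a prior count of 2. Ratios carry exact conditional binomial 95% intervals (scipy 1.17.1), tested on simulated data. A count of 0 was set to 3 for bounds, per library. Without molecular identifiers, reads may be copies of 1 molecule, so intervals and bounds cover counting error only. Clusters join hairpins within 10 kb on 1 strand and hold only miRNAs with a RefSeq position. Host genes come from GENCODE vM21 (GRCm38), whose coordinates match those of the RefSeq miRNA table.

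Named miRNAs were the 12 largest increases and 12 largest decreases among those with 50 or more reads and an interval excluding 1, the 10 most abundant, up to 4 members per list, cell type markers, other arms, and members of the leading seed groups and clusters. miR-1224-5p, miR-218-5p, miR-744-5p, miR-615-3p, miR-19b-3p, miR-501-5p, the arms of miR-872, miR-193b and miR-361, and the miR-344 miRNAs were not taken by this rule and were added because of their values. The members and lists were chosen with earlier results of these data known. DESeq2 1.42.0 size factors were an alternative scaling.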

Additional observations from a re-analysis of the deposited data

Results flagged for a closer look

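Of the called miRNAs that lay at least 1.5-fold on the other side at day 2, 2 also passed the full rule of a call there, at least 2-fold with an interval excluding 1, in the opposite direction. The difference between the days was not tested. miR-148a-3p had a log2 change of -1.31 at day 4, from 7 reads with TGFβ and 14 with vehicle, and of 2.89 at day 2, where its level was 449 CPM with TGFβ and 56.7 CPM with vehicle. miR-199b-5p had a log2 change of 1.57 at day 4, from 215 reads with TGFβ and 50 with vehicle, and of -1.17 at day 2, where its level was 76.7 CPM with TGFβ and 178 CPM with vehicle. Of these, the day 4 value of miR-148a-3p rests on 21 reads in all. The day 2 TGFβ library also held a higher level of epithelial markers than its vehicle library, with sums of 986 and 211 CPM. Whether this bears on the day 2 values was not tested.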

How the results depend on the processing

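Scaling by total reads in place of TMM shifted the median by -0.48 and gave 43 called higher and 86 called lower, and 72 and 140 at 1.5-fold. With no filter on low values, 555 miRNAs were measured and 197 were higher and 157 lower at 1.5-fold. At a mean of 100 CPM or more, 191 were measured, 38 were called higher and 23 lower, 66 and 41 passed 1.5-fold, 20 of 32 arm pairs lay on 1 side, and 55 of the called miRNAs were at least 1.5-fold on the same side at day 8. These counts fell because fewer miRNAs were measured. DESeq2 size factors and TMM from the 2 day 4 libraries each gave 56 called higher and 60 lower. TMM over all detected miRNAs gave 60 and 54, and TMM over miRNAs of mean CPM 10 or more gave 51 and 65, both chosen after seeing the data. All 49 called lower and 43 of the 65 called higher kept their call under every scaling and prior count tried. Every other scaling moved the median down, with shifts from -0.06 to -0.48, which works against higher calls and for lower calls. The 2 counts therefore do not compare how firm the 2 sets are. No paired analysis was possible because the comparison is of day 4 alone, with 1 library per condition, and no replicate could be left out. A fit over the 3 days with day as a block asks about their average and was not made here. Depth limits the rarer miRNAs: 35 of the 65 called higher and 19 of the 49 called lower had 100 or more reads in the pair.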
